A study of Homo sapiens with 6 samples.

Results

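Olfactory receptor genes were the targets of 3720 of the 209070 sgRNAs listed in a genome-wide CRISPRi screen for genes that set the level of an opioid receptor after agonist. An sgRNA counted as an olfactory receptor sgRNA where its gene name had the form of an olfactory receptor symbol, which is OR followed by a family number, subfamily letters and a member number. The choice used names only and no read count. It covered 366 of the 18905 genes analysed, and all 366 matched a gene of the RefSeq GRCh38.p14 table, 362 of them annotated as protein coding. The 3720 sgRNAs were listed at 10 to 30 per gene. With no read in any library, 1855 of them may not have been in the pool. A further 29 had reads but fewer than 50 in every library, and 7 had their reads in a sublibrary other than that of their gene. The remaining 1829 were analysed. At the start site that stood for the gene, 1796 of these were counted, and the 366 genes had 3 to 7 each, with 5 for 316 genes and 4 for 40 genes; 5 genes had sgRNAs at several start sites.

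The screen was run in HEK293 FLP-In cells, human embryonic kidney cells into which a transgene can be placed at a fixed site, and the reporter cells had been expanded as clonal populations. All cells carried SSF-DORmct-APEX2, a delta opioid receptor with the C-terminal tail of the mu opioid receptor fused to the peroxidase APEX2, together with dCas9-KRAB-BFP, which silences the promoter that an sgRNA points to. Cells that took up an sgRNA were selected with puromycin at 0.75 µg/ml. After 8 days with the sgRNAs and 90 min in 10 µM DADLE, an opioid peptide, every cell was reacted with Amplex UltraRed, whose fluorescence reports the receptor that remains. For each of 3 sublibraries (H17, H23 and H456) the brightest quartile (top) and the dimmest quartile (bottom) were sorted and sequenced as 1 library each, so that no group had a replicate. The letter that closes a library's name in the labels is that of the other quartile, so the quartiles were taken from the sample titles. Totals were 23426498 to 47989659 reads in the top libraries and 28996259 to 50486627 reads in the bottom libraries.

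Olfactory receptors are G protein-coupled receptors of the sensory neurons of the nose, where each neuron expresses a single receptor gene and the others lie in silent chromatin. Odorant binding activates the G protein alpha subunit encoded by GNAL, then the adenylyl cyclase ADCY3 and a cyclic nucleotide-gated channel. In cell lines derived from other tissues most of these genes are not transcribed, and sgRNAs against them are often taken as a targeting control, since they bring dCas9-KRAB to the genome at a gene that the cells are not known to use. Transcription was not measured here, so which of the 366 genes were active in these cells is not known.

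All olfactory receptor sgRNAs have the same length mark in their names, 23 bases, and their protospacer letters are not printed. RefSeq promoter windows are shown instead for 4 genes, as the 120 bases before the RefSeq start on the coding strand, 5′ to 3′, with each CG in capitals. The sgRNA positions were not placed in these windows. OR13C5 was called as a hit, OR4B1 had the lowest P of the family, and OR2M3 and OR56B1 were low genes with a start site that the sgRNA library names P1P2 rather than by a transcript. The windows, in GRCh38.p14, are chr9:104599414-104599533 on the minus strand for OR13C5, and on the plus strand chr11:48216690-48216809 for OR4B1, chr1:248197145-248197264 for OR2M3 and chr11:5736328-5736447 for OR56B1.
OR13C5: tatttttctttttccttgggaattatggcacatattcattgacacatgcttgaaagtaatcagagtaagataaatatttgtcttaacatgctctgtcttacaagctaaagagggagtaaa
OR4B1: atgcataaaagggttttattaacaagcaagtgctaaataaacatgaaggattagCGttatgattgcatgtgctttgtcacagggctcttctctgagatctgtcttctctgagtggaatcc
OR2M3: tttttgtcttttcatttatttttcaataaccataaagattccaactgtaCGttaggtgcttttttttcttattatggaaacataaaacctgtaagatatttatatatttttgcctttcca
OR56B1: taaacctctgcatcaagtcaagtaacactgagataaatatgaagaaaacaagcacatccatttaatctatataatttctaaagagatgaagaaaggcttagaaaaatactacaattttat

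The 4 stretches were rich in A and T, and OR13C5 had no CG in its whole 250-base upstream window. CG dinucleotides were counted in the 250 bases before the start, where CG is its own reverse complement, so that both strands were read at once. Among the 293 olfactory receptor genes with a promoter in the RefSeq table, the median was 1 CG and 37.2% G or C, against 18 CG and 62.8% G or C over 14698 other genes of the screen. No CG at all was found in 88 of the 293 olfactory receptor promoters and in 358 of the 14698 other promoters (2.44%), and 10 or more were found in 3 olfactory receptor promoters (1.02%) and in 10530 of the others (71.6%). A count of letters is a description of the window and says nothing about binding of dCas9-KRAB there.

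The phenotype of an sgRNA compared its share of reads between quartiles, as log2 of top over bottom, and was centred so that nontargeting control (NTC) sgRNAs had a median of 0 in each sublibrary. A negative value means that cells with this sgRNA were found more often among the dim cells. For a gene, the phenotypes of the sgRNAs at 1 start site were averaged. These sgRNAs were tested against the NTC sgRNAs with an exact two-sided Mann-Whitney test, and P was adjusted by Benjamini-Hochberg over all 18905 genes. The units of this test are sgRNAs in 1 sort per sublibrary, so a P compares these libraries and not independent cultures.

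No olfactory receptor gene passed an adjusted exact P of 0.05, either as negative (0 of 366) or as positive (0 of 366). The background over all genes was 0.381% negative (72 genes) and 0.0952% positive (18 genes). At an unadjusted exact P of 0.05, 23 olfactory receptor genes (6.28%) were negative and 7 (1.91%) were positive. Over all genes these shares were 4.04% and 4.06%, so the olfactory receptor genes lay above the background on the negative side and below it on the positive side. These counts depended on the comparison set, with 11 negative and 5 positive when the other olfactory receptor sgRNAs took the place of the NTC sgRNAs. The shares over all genes were not counted with that set. Genes past an adjusted exact P of 0.05 then numbered 50 in all, against 90. In the H456 sublibrary alone, which held 342 of the 366 genes and all 30 of those below 0.05, the shares were 6.73% negative and 2.05% positive, against 4.53% and 3.57% of 6579 other genes. The lowest adjusted exact P of the family was 0.107, for OR4B1.

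By the pseudogene threshold, at which fewer than 10% of the items called in a sublibrary are pseudogenes made of NTC sgRNAs, 2 olfactory receptor genes were called as negative hits and none as positive. The background for this rule was 0.693% negative and 0.201% positive over all genes, and 2 of 366 is 0.546%. These were OR13C5 and OR4N4, and both calls depended on which NTC sgRNAs were drawn. With 10 other draws, between 0 and 3 olfactory receptor genes were hits, and 3 of the draws gave none. Where 3 were hits, the third was OR4A47. Hits over all genes numbered 138 to 228 in the 10 draws. Leaving out the strongest sgRNA of every gene, while the pseudogenes kept all 5, also left no olfactory receptor hit.

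OR13C5, a class II receptor gene on chromosome 9, had 232, 98, 1435, 210 and 685 reads in the top quartile of H456, against 882, 370, 3228, 423 and 1142 reads in the bottom quartile. With a median of 0.588 top reads per bottom read for the NTC sgRNAs of H456, 4 of its 5 sgRNAs were depleted from the top quartile and the other was close to the NTC median. Its phenotype was −0.58 ± 0.54 (SD among 5 sgRNAs, exact P = 0.00525, adjusted P = 0.296). The single sgRNAs ran from −1.16 to 0.030.

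OR4N4, a class II receptor gene on chromosome 15, had 35, 943, 162, 650 and 754 reads in the top quartile, against 127, 2719, 429, 1199 and 1340 reads in the bottom quartile. All 5 of its sgRNAs were below the NTC median, although 2 of them by little (−0.12 and −0.062). Its phenotype was −0.53 ± 0.44 (SD among 5 sgRNAs, exact P = 0.00287, adjusted P = 0.224).

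OR4B1, on chromosome 11, had the lowest P of the family, with sgRNAs that agreed closely. Its 5 sgRNAs had 941, 164, 987, 217 and 221 reads in the top quartile, against 1382, 231, 1328, 287 and 269 reads in the bottom quartile. All 5 were above the NTC median, with phenotypes of 0.21 to 0.48. The mean was 0.33 ± 0.10 (SD among 5 sgRNAs, exact P = 0.000778, adjusted P = 0.107). OR4C12, also of family 4 on chromosome 11, lay on the opposite side with the same spread, −0.29 ± 0.10 over 5 sgRNAs that were all negative (exact P = 0.00276, adjusted P = 0.222); it was named after its values were seen.

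The 8 lowest genes with at least 4 sgRNAs were OR2B2 (−0.66), OR13C5 (−0.58), OR4N4 (−0.53), OR4A47 (−0.49), OR1F1 (−0.48), OR4D5 (−0.44), OR2K2 (−0.44) and OR51A2 (−0.42). Several of these means rested on few reads. OR2B2 had a single sgRNA with 5 reads in the top quartile and 67 reads in the bottom quartile, at −2.98, while its other 4 sgRNAs ran from −0.72 to 0.30, and its SD over sgRNAs was 1.35. OR4D5 had an sgRNA with 10 top reads and 60 bottom reads at −1.82, and its other 4 ran from −0.55 to 0.30. OR4A47 was lower more evenly, with 218, 470, 432, 590 and 290 reads in the top quartile, against 769, 1193, 1078, 1231 and 481 reads in the bottom quartile, and 4 of 5 sgRNAs below −0.29 (exact P = 0.00408, adjusted P = 0.266).

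The 8 highest were OR4D11 (0.40), OR2G3 (0.39), OR4E2 (0.37), OR52B6 (0.37), OR4B1 (0.33), OR52B2 (0.33), OR56A5 (0.29) and OR6P1 (0.29). OR4E2 again rested on 1 sgRNA, with 109 reads in the top quartile and 50 reads in the bottom quartile at 1.89, and its other 4 sgRNAs lay between −0.18 and 0.11. OR4D11 had 1 sgRNA with 74 top reads and 57 bottom reads at 1.14, and OR52B2 had 1 with 74 and 60 at 1.07. Without the strongest sgRNA, OR4D11 was at 0.15, OR52B2 at 0.080, OR52B6 at 0.19, OR2G3 at 0.24 and OR4B1 at 0.30. OR2G3, OR4D11, OR4B1 and OR52B6 had no sgRNA below the NTC median. Their adjusted P ran from 0.107 to 0.595 by the exact test. Beyond a phenotype of 0.5 in either direction lay 3 of the 366 genes, all negative (0.820%, against 1.59% of all genes), and beyond 0.25 lay 48 (13.1%, against 10.8% of all genes).

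Among single olfactory receptor sgRNAs with at least 50 reads in both libraries, the 5 lowest were against OR2D2 (63 top reads, 309 bottom reads, −1.53), OR1F1 (82 top reads, 381 bottom reads, −1.45), OR8J1 (133 top reads, 610 bottom reads, −1.43), OR10G8 (492 top reads, 1583 bottom reads, −1.37, in H17) and OR2L5 (60 top reads, 255 bottom reads, −1.32). The 5 highest were against OR4E2 (1.89), OR14I1 (343 top reads, 243 bottom reads, 1.26), OR4D11 (74 top reads, 57 bottom reads, 1.14), OR2T10 (136 top reads, 105 bottom reads, 1.14) and OR2AE1 (77 top reads, 61 bottom reads, 1.10). Read counting alone gives these 10 sgRNAs an SD of 0.074 to 0.25 log2 units. The 10 sgRNAs were against 10 different genes, and the gene phenotypes of OR2T10 and OR14I1 were 0.14 and 0.12.

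Across the family the phenotypes lay between −0.66 and 0.40 and centred near the NTC sgRNAs. The median over the 366 genes was −0.023 (95% interval of the median −0.037 to 0.0067), against 0.0014 over all genes (−0.0011 to 0.0040). Negative phenotypes were found for 197 olfactory receptor genes (53.8%), against 49.6% of all genes. The SD of the gene phenotypes was 0.174, and it was 0.175 over all genes. In H456 alone, the median was −0.024 over 342 olfactory receptor genes and −0.0035 over 6579 other genes, with SDs of 0.174 and 0.156.

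Single olfactory receptor sgRNAs spread more widely than NTC sgRNAs in H456, which held 1713 of the 1829. Their SD was 0.369, against 0.298 for 739 NTC sgRNAs and 0.311 for 35316 other targeting sgRNAs, and their middle 50% spanned 0.405, against 0.308 and 0.329 log2 units. The 1st percentile of the NTC sgRNAs of H456 was −0.83, and 37 olfactory receptor sgRNAs (2.16%, exact 95% interval 1.53 to 2.97) lay below it, against 1.21% of the other targeting sgRNAs of H456 (1.10 to 1.33) and 1.01% of targeting sgRNAs over the 3 sublibraries. Above the 99th percentile, 0.77, lay 26 (1.52%, 0.99 to 2.22), against 0.980% of the other targeting sgRNAs (0.88 to 1.09) and 1.1% over the 3 sublibraries. These intervals cover the number of sgRNAs counted and not the error of their reads.

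The olfactory receptor sgRNAs of H456 also had fewer reads, with a median of 465 in the top quartile and 804 in the bottom quartile, against 721 and 1210 for NTC sgRNAs. The SD from read counting alone had a median of 0.085 for olfactory receptor sgRNAs and 0.068 for NTC sgRNAs, a lower bound, since amplified reads cannot be traced to separate molecules. The sgRNAs were divided into 4 bins at the quartiles of the olfactory receptor sgRNAs by total reads, a division added after the data were seen. Up to 756 reads, the SD was 0.538 for 428 olfactory receptor sgRNAs, 0.540 for 109 NTC sgRNAs and 0.556 for 4878 other targeting sgRNAs. From 1932 reads upwards it was 0.220, 0.200 and 0.214 for the same groups. In the 2 bins between, olfactory receptor sgRNAs had the widest spread, with 0.359 against 0.294 and 0.322 in the second, and 0.280 against 0.245 and 0.265 in the third.

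Weighted to the same share in each bin, the NTC sgRNAs had an SD of 0.345 and the other targeting sgRNAs one of 0.364, both close to the 0.369 of the olfactory receptor sgRNAs. The share below the 1st NTC percentile was then 2.16% of the olfactory receptor sgRNAs, 1.80% of the NTC sgRNAs and 1.84% of the other targeting sgRNAs, and above the 99th percentile it was 1.52%, 1.64% and 1.72%. Of the NTC sgRNAs 14.7% fell in the bin with the fewest reads and 49.8% in the bin with the most.

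The sgRNAs against the other chemosensory receptors, for taste, trace amines and pheromones, had a like profile in H456. Their 165 sgRNAs had a median of 415 reads in the top quartile and 693 in the bottom quartile, an SD of 0.438 and 3.03% of values below the 1st NTC percentile (exact 95% interval 0.99 to 6.93). Of their 36 genes, none was negative and 2 (5.56%) were positive at an unadjusted exact P of 0.05, against 4.04% and 4.06% over all genes. None of the 36 passed after adjustment. In the other sublibraries the olfactory receptor sgRNAs spread less than the NTC sgRNAs: the SD was 0.341 for 81 olfactory receptor sgRNAs and 0.472 for 553 NTC sgRNAs in H17, and 0.220 for 35 and 0.280 for 570 in H23. None of these sgRNAs lay outside the 1st or the 99th NTC percentile, which with 81 sgRNAs allows a share of up to 4.45% in H17 and with 35 up to 10.0% in H23. The 1st NTC percentile of H17 was −2.23, far lower than the −0.83 of H456. Beyond 1 log2 unit in either direction lay 2 of the 81 in H17 (2.47%), against 4.34% of its NTC sgRNAs.

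The sgRNAs to the same olfactory receptor gene agreed little more than sgRNAs to different ones. Of the variance among the olfactory receptor sgRNAs of H456, the share between genes (intraclass correlation) was 0.0226 over 342 genes, against 0.0418 over 6579 other genes of H456. The median SD among the sgRNAs of a gene was 0.297 for olfactory receptor genes and 0.232 for the other genes. All sgRNAs had the same sign in 21 of 295 olfactory receptor genes with 5 sgRNAs (7.12%; 11 all negative, 10 all positive) and in 8.49% of 6136 other genes with 5. Of the 30 olfactory receptor genes at an unadjusted exact P of 0.05, 10 had only negative sgRNAs and 7 only positive ones. The test picked these genes by the same sgRNA values, so this count is no measure of agreement.

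By class, the 52 class I genes (families 51 to 56, the receptors of the fish-like type) had a median phenotype of 0.029 (95% interval −0.043 to 0.11), and the 314 class II genes (families 1 to 14, the type found in land vertebrates) one of −0.025 (−0.043 to −0.0025). The intervals overlap. At an unadjusted exact P of 0.05, 6 class I genes (11.5%) were negative and 2 (3.85%) positive, and 17 class II genes (5.41%) were negative and 5 (1.59%) positive. The shares over all genes were 4.04% negative and 4.06% positive. Both hits were of class II.

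Of the 17 families, 11 had at least 10 genes in the screen, and their medians ran from −0.11 for family 13 (12 genes, 9 of them negative) to 0.057 for family 52 (24 genes, 10 negative). Within these families the gene phenotypes had SDs of 0.095 to 0.225. In family 13, 3 of 12 genes were negative at an unadjusted exact P of 0.05, which were OR13C4, OR13C5 and OR13F1, all 3 on chromosome 9, and none was positive. In family 51, 4 of 22 genes were negative and none positive at that P, and the shares over all genes were 4.04% and 4.06%. Family 7 had 9 of 11 genes below 0 and none at that P, with a lowest gene of −0.26.

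Olfactory receptor genes lie in clusters, and 165 of the 366 are on chromosome 11. Their median was −0.021 (95% interval −0.051 to 0.0095), and 13 (7.88%) were negative and 5 (3.03%) positive at an unadjusted exact P of 0.05. Over all genes of the screen these shares were 4.04% and 4.06%. The 56 genes on chromosome 1 had a median of 0.033 with none negative and 1 positive at that P. Of the 9 chromosomes with at least 10 olfactory receptor genes, chromosome 9 had the lowest median, −0.16 over 25 genes (−0.26 to 0.038), with 4 negative (16.0%) and none positive. These 4 were OR13C4, OR13C5, OR13F1 and OR1Q1, named after their values were seen.

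The lower tail held more sgRNAs of the minus strand than of the plus strand. In H456, 851 plus-strand sgRNAs had a median of −0.0021 and 862 minus-strand sgRNAs one of −0.012, with SDs of 0.343 and 0.392. Below the 1st NTC percentile lay 9 plus-strand sgRNAs (1.06%, exact 95% interval 0.48 to 2.00) and 28 minus-strand sgRNAs (3.25%, 2.17 to 4.66). The minus-strand sgRNAs had somewhat fewer reads, with a median of 1217 in both libraries together against 1332 for the plus strand, and the part of reads in this tail was not tested. The other targeting sgRNAs were not split by strand, so whether this gap is particular to the family is not known.

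A start site that the library names P1P2 was listed for 14 of the 366 genes, and 352 had a site named by a transcript. This split was made, and its genes were named, after the data were seen. The 14 genes had a median phenotype of −0.16 (95% interval −0.38 to 0.018), with 10 of them negative, and the 352 had one of −0.021 (−0.035 to 0.0095), with 187 negative. Against shares of 4.04% negative and 4.06% positive over all genes, 2 of the 14 were negative and none positive at an unadjusted exact P of 0.05. Their 68 sgRNAs had a median of −0.16 and 416 top reads and 791.5 bottom reads at the median, and the 1645 sgRNAs at sites named by a transcript had one of −0.0050, with 469 top reads and 804 bottom reads. Among the other genes of H456, P1P2 sites were not counted apart from P1 and P2 sites, so the same split was not made. The median there was −0.0029 over 6223 genes with a P1, P2 or P1P2 site and −0.015 over 356 with a site named by a transcript.

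The lowest of the 14 were OR51E2 (−0.40), OR2M3 (−0.39), OR56B1 (−0.38) and OR51E1 (−0.22). OR56B1 had 90, 257, 626, 396 and 532 reads in the top quartile, against 279, 605, 1329, 829 and 883 reads in the bottom quartile, with 4 of 5 sgRNAs below the NTC median (exact P = 0.00741, adjusted P = 0.342). For OR2M3 the reads were 136, 100, 56, 1100 and 1258 in the top quartile, against 523, 246, 120, 1917 and 1947 in the bottom quartile, and its 2 sgRNAs with the most reads lay at −0.034 and 0.14 (exact P = 0.0557, adjusted P = 0.625). The highest was OR2L13 (0.21), with 4 of 5 sgRNAs above the NTC median. The remaining 9 were OR8S1 (−0.21), OR8G1 (−0.18), OR10S1 (−0.16), OR7A5 (−0.16), OR4C6 (−0.11), OR7C1 (−0.10), OR11A1 (0.0060), OR5C1 (0.018) and OR2H1 (0.064).

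Some olfactory receptor genes are known to be transcribed outside the nose, and 9 of these were examined by name. OR51E2 and OR51E1 are best known from prostate tissue, and OR51E2 responds to short-chain fatty acids. The 4 sgRNAs of OR51E2 had 452, 621, 421 and 527 reads in the top quartile, against 1377, 1365, 837 and 1004 reads in the bottom quartile. All 4 were depleted from the top quartile relative to the NTC sgRNAs. Its phenotype was −0.40 ± 0.31 (SD among 4 sgRNAs, exact P = 0.00525, adjusted P = 0.296), which did not pass. OR51E1 had 124, 184, 244, 655 and 777 reads in the top quartile, against 317, 381, 499, 1170 and 1212 reads in the bottom quartile, and a phenotype of −0.22 ± 0.27 (SD among 5 sgRNAs, exact P = 0.0789, adjusted P = 0.673).

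The other 7 lay closer to the NTC median. OR1D2, a receptor studied in sperm, had 0.026 ± 0.36, and OR2AT4, studied in skin, had −0.091 ± 0.30 (SD over 5 sgRNAs each). OR2W3 had −0.072 ± 0.38 over 5 sgRNAs, OR10H1 0.13 ± 0.27 over 4 and OR13A1 0.16 ± 0.28 over 7. OR2A4 and OR2A7 had −0.024 ± 0.089 and −0.025 ± 0.089 over 5 sgRNAs each, of which 4 were the same sgRNAs. Their exact P ran from 0.137 to 0.900.

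Paralogues shared sgRNAs, so the members are not all separate measurements. An sgRNA listed under 2 or more names with the same reads in all 6 libraries was taken as a single sgRNA. There were 47 of these, 44 under 2 names and 3 under 3 names, in 97 of the 1829 entries and under 32 genes. Every set lay within 1 receptor family. A further 2 sgRNAs were listed under both start sites of OR13A1, and 1777 different sgRNAs remained. OR4F17, OR4F4 and OR4F5, on chromosomes 19, 15 and 1, had 3 sgRNAs in common, with 517, 100 and 716 top reads against 1106, 155 and 1488 bottom reads, at −0.33, 0.14 and −0.29. The phenotypes of these 3 genes were −0.23, −0.032 and −0.20, and they differed only through their unshared sgRNAs and 1 more that OR4F17 and OR4F4 share.

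For 3 pairs every analysed sgRNA was shared, which were OR2A1 with OR2A42 (0.17), OR8U1 with OR8U8 (0.085) and OR9G1 with OR9G9 (−0.0062), so that each pair gave a single phenotype. OR3A2 and OR3A3 shared 5 sgRNAs, and OR3A3 had a sixth at −1.33, so that their phenotypes were 0.031 and −0.20. These pairs were named after their values were seen. Where an sgRNA matches more than 1 locus, the part of each locus in its phenotype cannot be told apart.

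An sgRNA close to the start of a neighbouring gene can silence that gene instead. By the positions in the sgRNA names, none of the 366 olfactory receptor genes had an analysed sgRNA within 1000 bases of an sgRNA against a gene outside the family, and 5 had one within 10000 bases. The nearest was OR51F1, 2179 bases from an sgRNA against MMP26, a matrix metalloproteinase gene; the phenotypes were 0.048 for OR51F1 and −0.17 for MMP26 (exact P = 0.899 and 0.152). This pair was picked after its distance was seen.

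The 20 genes listed for olfactory signalling, receptor export and control of receptor choice had phenotypes of −0.21 to 0.38. None passed an adjusted exact P of 0.05 and none was a hit, and 2 of 20 were positive and none negative at an unadjusted exact P of 0.05, against 4.06% positive and 4.04% negative over all genes. These 2, of which OMP was named after its values were seen, were RTP1, which carries olfactory receptors to the cell surface (0.38 ± 0.28, exact P = 0.00652, adjusted P = 0.328), and OMP, the olfactory marker protein (0.37 ± 0.33, exact P = 0.0110, adjusted P = 0.388). GNAL, the G protein alpha subunit of olfactory neurons, had 0.19 ± 0.28 over 6 sgRNAs, ADCY3 −0.21 ± 0.32 over 5, and RIC8B, a chaperone of G protein alpha subunits, 0.072 ± 0.062 over 5. The median of the 20 was 0.038, against 0.0014 over all genes.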

How the data were processed

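Genomic sgRNA inserts were amplified with 27 PCR cycles without molecular identifiers, and the authors cropped reads to 38 bp and tallied them per sgRNA with ScreenProcessing. The authors deposited whole-number counts without normalization, for 209070 listed sgRNAs in each of 6 libraries. The design is named hCRISPRi-v2 top5, although the list held 10 to 30 sgRNAs per olfactory receptor gene. For positions in sgRNA names, the build is not given in the sources used. Each gene was analysed in the sublibrary with most of its reads. An sgRNA was kept with at least 10% of its reads there and at least 50 reads in the top or the bottom library. A count of 0 had 1 added to it and to its partner. A gene with several start sites of at least 2 sgRNAs was represented by the site with the lower P.

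The test was an exact two-sided Mann-Whitney test against NTC sgRNAs. For hits, pseudogenes of 5 NTC sgRNAs were drawn with a fixed seed. The score was the phenotype without sign over their SD, times −log10 P. The P in this score came from the normal approximation of the Mann-Whitney test and not from the exact test. With 1 library per group no test across samples exists; edgeR (version 4.0.16) served only for an alternative centring. Code ran in Python 3.11.15 and R 4.3.3 and was tested on simulated data.

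The members, gene lists and tests were chosen with earlier results of these data known. Named were the hits, the 8 lowest and 8 highest genes, the 9 genes known outside the nose, the 5 lowest and 5 highest sgRNAs, the sgRNAs shared by most names, any gene with an sgRNA within 1000 bases of a neighbour's, and GNAL, ADCY3, RTP1 and RIC8B; another gene of that rule is not reported here. Depth was 23426498 to 50486627 reads per library. Agonist and knockdown times are those of the labels, and the study's methods also give others.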

Additional observations from a re-analysis of the deposited data

Results flagged for a closer look

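Reads appeared outside the sublibrary to which the gene was assigned for 7 olfactory receptor sgRNAs, each with at least 50 reads there. All 7 were against paralogues of family 2 on chromosome 1, namely 2 against OR2T2, 2 against OR2T35, 1 against OR2T34 and 2 against OR2T3. The first 5 had 680 to 2490 reads in H456 and 1 to 8 reads in H17, where their genes were analysed, and those of OR2T2 and OR2T35 were the same 2 sgRNAs under both names. The 2 against OR2T3 had 757 and 1558 reads in H17 and 0 and 33 reads in H456. None of the 7 entered a phenotype.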

How the results depend on the processing

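No olfactory receptor gene and no gene of the signalling list passed an adjusted exact P of 0.05 under any alternative run, with a lowest adjusted P for an olfactory receptor gene of 0.0995 (at least 100 reads in at least one library) to 0.697 (strongest sgRNA left out). Hits moved more. No olfactory receptor gene was a negative hit with a minimum of 1 read, at less than 5% pseudogenes or without the strongest sgRNA (0 in each, against 2). Pseudogene seeds 7, 8 and 9 also gave 0. None was a hit with olfactory receptor sgRNAs as comparison set. The same held with NTC sgRNAs of at most the upper quartile of olfactory receptor reads, where the lowest adjusted exact P of the family was 0.522. OR4N4 was no longer a hit with at least 50 reads in both libraries, and OR13C5 with the median over sgRNAs. With at least 100 reads, 4 were negative hits, OR13C2, OR13C5, OR4A47 and OR4N4, and hits over all genes numbered 193. OR4A47 was also a hit with the median over sgRNAs and with the mean of the 3 strongest sgRNAs. With at least 50 reads in both libraries, OR4A47 was a negative hit and OR4B1 a positive one, and hits over all genes numbered 205. That minimum also moved the share of sgRNAs below the 1st NTC percentile to 3.85%. Without the strongest sgRNA the median phenotype of the family was 0.0075, and OR2A4 (0.0034), OR2A7 (0.0029), OR2AT4 (0.033), OR2W3 (0.12) and OR4E2 (−0.0051) changed sign; OR2A7 also did after thinning to the smaller library total (0.018). The cause was not tested. Calls over all genes also fell, to 22 without the strongest sgRNA, against 90. That run takes the sgRNA farthest from 0 out of a gene as well as lowering the number of sgRNAs. With the olfactory receptor sgRNAs as comparison set, 50 genes passed in all, and with NTC sgRNAs limited to the reads of olfactory receptor sgRNAs, an alternative chosen after seeing the data, 27 did. Hits over all genes numbered 169, against 95 at less than 5% pseudogenes, 35 without the strongest sgRNA and 47 with the limited NTC sgRNAs. They numbered 126 with a minimum of 1 read and 135 with olfactory receptor sgRNAs as comparison set. At an unadjusted exact P of 0.05, the 23 negative and 7 positive olfactory receptor genes became 11 and 5 with olfactory receptor sgRNAs as comparison set, 13 and 5 without the strongest sgRNA, and 19 and 3 with the limited NTC sgRNAs. The shares over all genes at that P were not counted in these runs. Of the other values, 122 for the family and 306 phenotypes of named genes kept their direction and side of the threshold. Hit calls of single genes were not among these values. No paired analysis was possible because each group held 1 library, and for the same reason no library could be left out. Depth limits sgRNAs with few reads most, since counting alone gives an SD of 0.138 at up to 756 reads.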
